A study of Mus musculus with 4 samples.

Results

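The mouse Zfp genes are numbered genes for zinc finger proteins. Those described here are the protein-coding genes named Zfp with a number that had at least 1000 raw counts summed over the 4 libraries of the study, which makes 188 of 54146 mouse genes in the table. The annotation held 366 such Zfp genes. Of these, 195 reached the minimum, 3 of them were left out by name, and 4 were left out because they lie on chromosome X or on chromosome 14 beyond 63.5 Mb. Chromosome Y and chromosome 17 beyond 71.9 Mb were left out by the same rule. Another 165 eligible Zfp genes stayed under the minimum, 20 of them with 0 counts. The sum over all libraries chose the genes, so their being transcribed is not a finding. The last genes inside the minimum were Zfp184 with 1000 counts, Zfp113 with 1043 and Zfp870 with 1054, and the first outside were Zfp408 with 998, Zfp825 with 952 and Zfp202 with 942.

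The libraries come from TT-seq, in which cells receive the nucleoside analogue 4-thiouridine and the labelled, newly made RNA is purified and sequenced, so that a gene's value follows its ongoing transcription. Mouse embryonic stem (ES) cells in medium with LIF and serum were profiled as 2 libraries labelled Supt3 WT (wild type) and 2 labelled Supt3 KO. Supt3 encodes a subunit of the SAGA coactivator complex. The sources used here do not describe the KO allele, the ES cell line or the number of clones. Whether replicate libraries stem from separate cultures is not stated in the labels, and the p-values therefore cover only the spread between the 4 libraries, which may be technical. Supt3 itself had 148 and 159 counts per 1000000 in the WT libraries and 123 and 140 in the KO libraries (log2 fold change -0.22 ± 0.10, adjusted p = 0.232, edgeR), which checks no label while the allele is not known. Mouse counts were 13512654 and 19405100 in WT replicates 1 and 2, and 13092151 and 18386501 in KO replicates 1 and 2.

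Most Zfp proteins carry tandem zinc fingers of the C2H2 type, each folded around a zinc ion and reading a short stretch of DNA. Many also carry a KRAB domain, which recruits the co-repressor Trim28 and, through it, the histone methyltransferase Setdb1. The H3K9 methylation that follows silences transposable elements in ES cells and protects some imprinted regions. Genes for KRAB zinc finger proteins arose by tandem duplication and lie in clusters of close relatives. Other Zfp genes bear the name for a finger alone and encode activators, RNA-binding proteins or ubiquitin ligases.

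The 188 genes lay on 19 chromosomes, with 42 on chromosome 7, 26 on chromosome 17 and 18 on chromosome 4. In the translated coding sequences the fingers ranged from 0 to 36, with a median of 11. A finger was counted as 2 cysteines 2 to 4 residues apart, 12 further residues, and 2 histidines 3 to 5 residues apart. Zfp142 had the 36. No such pattern was found in Zfp36, Zfp330, Zfp365 and Zfp839. A pattern of the first helix of the KRAB domain matched 104 of the proteins. That pattern was loosened after its first matches were seen and still misses some genes, so a match is a description only. KRAB matches were found in 70 of the 84 genes that lie in clusters and in 34 of the 104 scattered ones.

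Between the genotypes, 10 of the 188 genes passed the test, 8 higher and 2 lower in the KO libraries. The test was edgeR's quasi-likelihood test with TMM scaling and a Benjamini-Hochberg adjusted p under 0.05 over 16789 genes. That is 5.32% of the Zfp genes, beside 8.07% of all tested genes. Over all tested genes, 4.05% were higher and 4.02% lower. The sequence just before the start site is shown for 5 of the 10, the 3 largest increases and the 2 decreases. Each run is the 180 bases that precede the RefSeq start, 5′ to 3′ on the gene's strand, in build GRCm38.p6, with every CG dinucleotide in capitals. The windows are chr4:62965387-62965566 on the plus strand, chr6:28398006-28398185 and chr9:20385159-20385338 on the minus strand, chr13:67421419-67421598 on the minus strand and chr7:27838404-27838583 on the plus strand.
Zfp618: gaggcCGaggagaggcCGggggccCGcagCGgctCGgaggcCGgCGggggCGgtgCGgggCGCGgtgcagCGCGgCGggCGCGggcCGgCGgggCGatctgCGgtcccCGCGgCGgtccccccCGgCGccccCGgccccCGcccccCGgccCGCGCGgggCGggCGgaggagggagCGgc
Zfp800: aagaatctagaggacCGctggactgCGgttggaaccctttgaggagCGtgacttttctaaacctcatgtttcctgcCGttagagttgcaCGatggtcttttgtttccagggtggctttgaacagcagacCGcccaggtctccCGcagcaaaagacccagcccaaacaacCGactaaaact
Zfp560: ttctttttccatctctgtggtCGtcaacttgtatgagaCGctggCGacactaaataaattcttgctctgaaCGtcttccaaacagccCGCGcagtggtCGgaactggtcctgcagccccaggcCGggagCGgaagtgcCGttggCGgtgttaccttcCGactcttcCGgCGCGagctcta
Zfp459: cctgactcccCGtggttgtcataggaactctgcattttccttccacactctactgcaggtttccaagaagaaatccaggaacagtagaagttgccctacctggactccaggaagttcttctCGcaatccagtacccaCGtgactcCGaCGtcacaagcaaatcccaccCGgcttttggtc
Zfp59: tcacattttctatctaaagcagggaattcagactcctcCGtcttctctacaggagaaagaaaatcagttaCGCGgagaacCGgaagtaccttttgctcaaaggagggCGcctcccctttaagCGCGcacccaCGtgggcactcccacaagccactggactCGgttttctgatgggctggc
The run before Zfp618 held 34 CG dinucleotides, that before Zfp560 15, Zfp59 9, Zfp800 8 and Zfp459 6. In the same windows of 4 other genes that rose there were fewer still, 5 in Zfp951, 4 in Zfp948 and in Zfp605 and 2 in Zfp260, so the number of CG dinucleotides did not separate genes that rose from genes that fell.

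**Figure D1:**
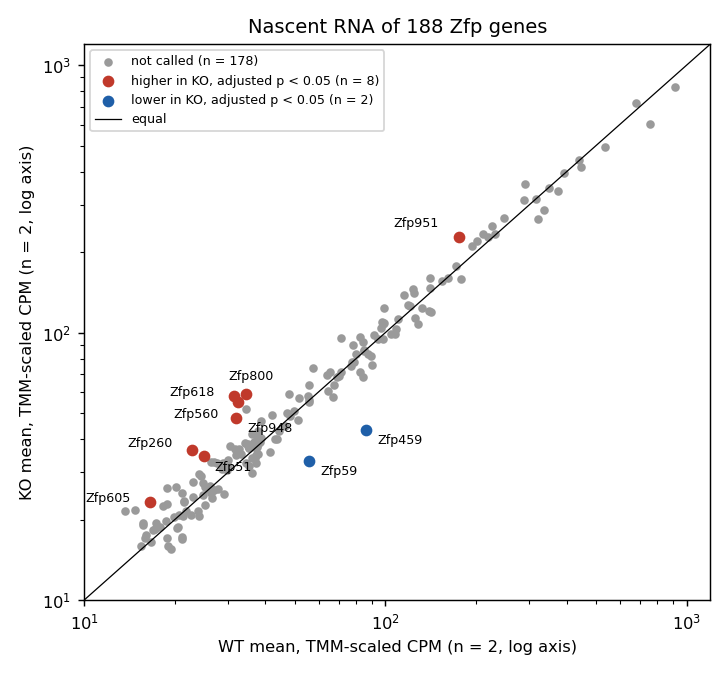
Each point is 1 of the 188 Zfp genes, with the mean of 2 WT libraries on the horizontal axis and of 2 KO libraries on the vertical axis, both in CPM (a gene's counts per 1000000 of the library, TMM-scaled) on log axes. Most points lie along the line of equality, the 8 red genes were higher in KO and the 2 blue genes, Zfp459 and Zfp59, lower.

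Among the genes that rose, Zfp618 had the largest increase. It encodes a protein with 4 fingers and no KRAB match, and lies at chr4:62965573-63139708. Its CPM, the counts per 1000000 counts of a library after TMM scaling, were 34.3 and 28.8 in WT and 63.9 and 52.0 in KO, a log2 fold change of 0.88 ± 0.13 (SE, adjusted p = 0.00677, edgeR). Zfp800, with 6 fingers and no KRAB match, lies at chr6:28239927-28398005. Its CPM were 34.4 and 34.8 in WT and 56.5 and 61.4 in KO, a log2 fold change of 0.77 ± 0.10 (adjusted p = 0.00326, edgeR). For both genes the genotypes differed by more than the libraries of 1 genotype did, and the groups did not overlap. Zfp560, a KRAB gene with 15 fingers at chr9:20345136-20385177, had 34.7 and 30.3 CPM in WT and 58.9 and 51.1 in KO. Its log2 fold change was 0.76 ± 0.12 (adjusted p = 0.00708, edgeR). Zfp260, at chr7:30094777-30107622, encodes a small protein of 407 residues made up largely of 12 fingers. Its CPM were 21.8 and 23.8 in WT against 40.9 and 31.8 in KO, so both KO libraries were high but they differed more from each other than the WT libraries did (0.67 ± 0.14, adjusted p = 0.0249, edgeR).

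The other increases were smaller. Zfp948 had 30.5 and 33.6 CPM in WT and 49.6 and 46.3 in KO, a log2 fold change of 0.58 ± 0.10 (adjusted p = 0.0131, edgeR). Zfp51 had 25.7 and 24.3 CPM in WT and 33.3 and 35.6 in KO (0.47 ± 0.11, adjusted p = 0.0355, edgeR). Both are KRAB genes of the same chromosome 17 cluster, at chr17:21567046-21588697 and chr17:21450374-21465587. Zfp605, at chr5:110110092-110129794, had 15.8 and 17.3 CPM in WT and 23.6 and 22.8 in KO (0.48 ± 0.12, adjusted p = 0.0494, edgeR). Zfp951 on the same chromosome, at chr5:104813169-104860070, was the most counted of the 10. Its CPM were 175 and 176 in WT and 224 and 230 in KO, and its change was the smallest that passed (0.37 ± 0.09, adjusted p = 0.0382, edgeR). Zfp605, Zfp51 and Zfp951 no longer passed when WT replicate 1 or WT replicate 2 was left out.

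Both genes that fell are KRAB genes. Zfp459, at chr13:67405709-67421418, had 71.2 and 101.8 CPM in WT and 36.5 and 50.3 in KO, a log2 fold change of -0.99 ± 0.19 (adjusted p = 0.0154, edgeR). In each genotype its replicate 2 was above replicate 1, by 0.52 in WT and 0.46 in KO on the log2 scale, and the genotypes still did not overlap. Its coding sequence holds only 3 fingers, the fewest of the 10. Zfp59, at chr7:27838607-27856438, had 52.7 and 59.2 CPM in WT and 27.8 and 38.5 in KO (-0.75 ± 0.15, adjusted p = 0.0187, edgeR). Of the 50-base words in its exons, 52.4% also stand in another gene, so its value is uncertain, since reads there could be lost or assigned to a copy. In the other 9 genes the share of such words was at most 5.34%. Genes that overlap the 10 had at most 30 counts each, against 1270 or more in the Zfp genes themselves.

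**Figure D2:**
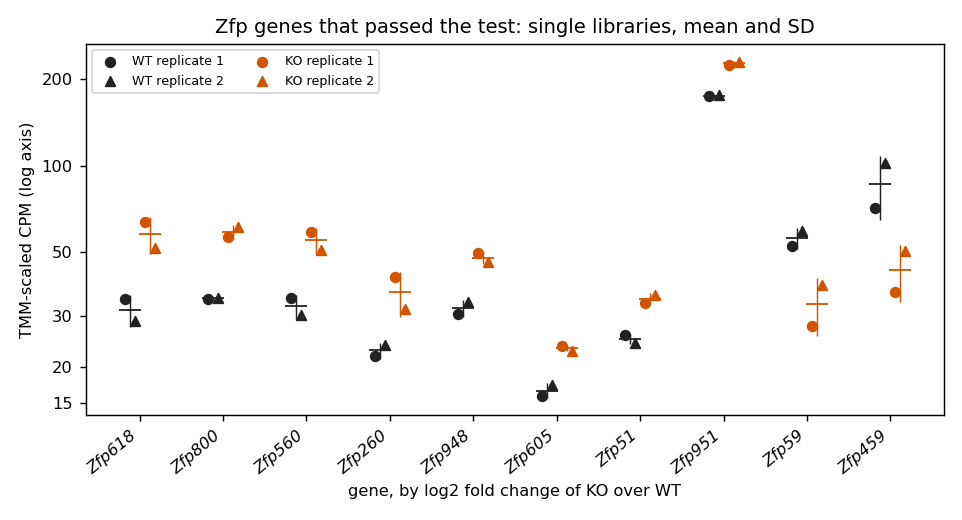
Points give the TMM-scaled CPM (log axis) in each of the 4 libraries for the 10 Zfp genes that passed the test, with WT in black and KO in orange, and bars give the mean ± SD of each genotype (n = 2). In all 10 genes the KO points lie on 1 side of the WT points.

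These differences depend on what the libraries are scaled to. TMM sets the bulk of mouse genes equal between libraries, so a value here is relative to the other genes. With the labelled S. pombe RNA as the scale, the median over all tested genes moved by -0.24 and 0 of the 188 genes passed, where 0.101% of all tested genes did (0 at an unadjusted p under 0.05; 8 passed in DESeq2 and 10 in limma voom, both scaled to mouse genes, where 6.79% and 8.06% of all tested genes passed). S. pombe counts were 4155518 and 3462802 in WT replicates 1 and 2, and 4836407 and 3786899 in KO replicates 1 and 2. Replicate 2 of each genotype thus held fewer S. pombe counts but more mouse counts than replicate 1. Scaling to S. pombe therefore also sets the replicates of a genotype apart, which widens the spread used by the test. Which of the 2, shift or spread, removed the calls was not tested. On the S. pombe scale Zfp618 kept a log2 fold change of 0.64, Zfp951 of 0.14 and Zfp459 of -1.24. There 29 of the 188 genes were positive, against 119 with TMM. In the authors' deposited table, which is scaled to S. pombe, 0 of the 188 genes had an adjusted p under 0.05 (1 at an unadjusted p under 0.05), beside 0.0271% of all genes there. Its log2 fold changes for these genes ran from -0.83 for Zfp459 to 0.48 for Zfp618. They are labelled as fitted with a beta prior, which shrinks fold changes, so they and the values above are not like measures. The count also moved with single libraries. Without WT replicate 2, 5 genes were higher and 2 lower, or 3.72%, where 4.78% of all tested genes passed. Without KO replicate 2, 18 were higher and 10 lower, or 14.9%, where 16.4% of all tested genes passed. The share of the Zfp genes thus moved with that of all genes.

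Over all 188 genes the median log2 fold change was 0.055, with quartiles of -0.082 and 0.16, beside 0.0065 over all tested genes. Among the 7357 other protein-coding genes with the same minimum and chromosomes the median was 0.021, and 8.13% passed the test. Of the Zfp genes, 168 (89.4%) stayed within 1.25-fold, compared with 84.3% of those other genes. At an unadjusted p under 0.05, 37 Zfp genes passed, or 19.7%, beside 22.9% of all tested genes. Both KO libraries were above both WT libraries in 71 genes, or 37.8%, where 26.7% of all tested genes were. Both were below in 35 genes, or 18.6%, where 26.0% of all tested genes were. The 7357 other protein-coding genes also leaned to the higher side, with both KO libraries above in 2155 and below in 1620. With TMM scaling the Zfp genes thus lay on the higher side in a larger share than all genes did, by small amounts. A smaller share of them passed the test. These differences in share were not tested. The median absolute log2 difference was 0.13 between genotypes, 0.10 between the WT libraries and 0.11 between the KO libraries. The first compares 2 libraries with 2, and the others compare 1 library with 1. A difference between groups of 2 carries less of the spread between libraries, so these values are not like measures. In 75 of the 188 genes the genotype difference was larger than both replicate differences. The same count was not made over all tested genes, so it is a description only.

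Nearby families gave other counts, and the differences between families were not tested. Of the 129 tested Zfp genes under the minimum, 0 passed in edgeR, 18 at an unadjusted p under 0.05, 0 in DESeq2 and limma voom, and 17 with a term for pairs of libraries of like depth. Of the 30 Zscan and Zkscan genes, whose fingers are joined to a SCAN domain, 3 passed, all higher, or 10.0%, beside 8.07% of all tested genes. Among the 3 was Zscan4d (1.11 ± 0.28, adjusted p = 0.0460, edgeR), which is also listed below as a marker of 2-cell-like cells. Of the 35 tested Zbtb genes, whose fingers are joined to a BTB domain, 0 passed in edgeR, 4 at an unadjusted p under 0.05, 1 in DESeq2, 0 in limma voom and 5 with that term. In the fit with that term 25.7% of all tested genes passed.

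Several Zfp genes stood just beyond the threshold, and were picked out after their values were seen. Zfp36 encodes tristetraprolin, which binds AU-rich elements and speeds mRNA decay. It had 16.3 and 10.98 CPM in WT and 22.4 and 20.6 in KO (0.67 ± 0.19, adjusted p = 0.0659, edgeR), and was the only gene beyond 1.5-fold that did not pass. Zfp697 had a log2 fold change of 0.56 and Zfp111 of 0.47 (adjusted p = 0.0654 and 0.0596, edgeR). On the negative side, Zfp516 had 83.5 and 84.8 CPM in WT and 68.0 and 68.7 in KO (-0.30 ± 0.09, adjusted p = 0.0704, edgeR). Zfp365 shows a large difference carried by 1 library, with 38.2 and 30.9 CPM in WT and 65.8 and 37.6 in KO. Its log2 fold change of 0.58 did not pass (adjusted p = 0.172, edgeR).

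The clustered genes form 10 clusters, taken as runs of at least 4 genes whose starts lie at most 2 Mb apart. Of the 84 clustered genes, 6 passed the test, or 7.14%, and the median log2 fold change was 0.089. Of the 104 scattered genes, 4 passed, or 3.85%, and the median was 0.018. In this edgeR fit 8.07% of all tested genes passed, and the difference between clustered and scattered genes was not tested. In 6 of the clusters 0 of 44 genes passed in edgeR (5 at an unadjusted p under 0.05; 0 in DESeq2 and in limma voom; 9 with a term for the depth pairs, a fit in which 25.7% of all tested genes passed). The calls lay as single genes among neighbours that did not pass.

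Among the 10 clusters, the chromosome 4 cluster, Zfp990 to Zfp933, chr4:145510759-147848366, held the most counts. Its 14 genes, all with a KRAB match, held 9.92% of the counts of the 188 genes. Their CPM summed to 1509 and 1701 in WT and 1699 and 1812 in KO, so that WT replicate 2 was level with KO replicate 1. The most counted gene, Zfp981, had 283 and 298 CPM in WT and 372 and 345 in KO, a log2 fold change of 0.30 ± 0.10 (adjusted p = 0.113, edgeR). The genes ran from -0.12 in Zfp992 to 0.30 in Zfp981 with a median of 0.11. Leaving out WT replicate 1 took that median to -0.00040, and leaving out WT replicate 2 took it to 0.25, so its size rests on which WT library is used. The libraries form a pair with fewer counts (replicate 1 of each genotype) and a pair with more, and within each pair the sum was higher in KO. With a term for these pairs the median was 0.11 and 3 of the 14 genes passed, among them Zfp981 and Zfp982. In that fit 25.7% of all tested genes passed, so the 3 are no sign of a rise particular to the cluster. These genes are close copies. A median of 48.7% of their 50-base exon words stand in another gene, against 0.522% over all 188 genes, and reads that fit several copies may be missing or split among them.

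The chromosome 9 cluster, Zfp317 to Zfp810, chr9:19622102-22307648, summed to 577 and 564 CPM in WT and 669 and 641 in KO. Its groups did not overlap, and 7 of its 9 genes were positive. Zfp560 was the gene that passed. Beside it, Zfp26 had 94.6 and 103 CPM in WT and 120 and 126 in KO (0.32 ± 0.09, adjusted p = 0.0679, edgeR). Zfp809, which binds the primer binding site of murine leukaemia viruses and silences proviruses in ES cells, had 60.1 and 54.6 CPM in WT and 79.8 and 67.8 in KO (0.36 ± 0.11, adjusted p = 0.0812, edgeR). The most counted gene, Zfp266, had a log2 fold change of 0.12 ± 0.09 (adjusted p = 0.493, edgeR). The cluster's median was 0.12, 0.20 without WT replicate 2 and 0.20 without KO replicate 2.

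On chromosome 17, the cluster from Zfp160 to Zfp598, chr17:21008903-24682015, was the one with most genes, 16. Its sums were 663 and 702 CPM in WT and 758 and 746 in KO. Zfp51 and Zfp948 rose within it. Its most counted gene, Zfp229, had 118 and 129 CPM in WT and 154 and 138 in KO (0.24 ± 0.10, adjusted p = 0.189, edgeR). The lowest value of the cluster was -0.33 for Zfp13. The second chromosome 17 cluster, Zfp871 to Zfp101, summed to 262 and 264 CPM in WT and 269 and 275 in KO, and Zfp871 had a log2 fold change of -0.08 ± 0.09 (adjusted p = 0.686, edgeR).

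The chromosome 7 cluster from Zfp60 to Zfp146, chr7:27731389-30169750, had changes in opposite directions. Zfp260 rose and Zfp59 fell, while the sums stayed level at 758 and 798 CPM in WT and 801 and 798 in KO. Its most counted gene is Zfp568, a KRAB protein that represses a placental promoter of Igf2. Zfp568 had 374 and 411 CPM in WT and 390 and 400 in KO, so that the KO values lay between the WT values (0.0081 ± 0.10, adjusted p = 0.976, edgeR). In the chromosome 13 cluster, Zfp459 to Zfp65, chr13:67405709-67729173, Zfp459 fell while the other 3 genes had log2 fold changes between -0.15 and 0.13. The cluster summed to 167 and 194 CPM in WT and 130 and 147 in KO.

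The remaining clusters had no gene that passed. On chromosome 6, Zfp398 to Zfp746, all 5 genes were positive with a median of 0.19, and Zfp777 had 46.8 and 49.1 CPM in WT and 58.0 and 60.3 in KO (0.30 ± 0.09, adjusted p = 0.0860, edgeR). The other 3 lie on chromosome 7. Zfp180 to Zfp574 had a median of 0.033, and its most counted gene Zfp180 one of 0.024 ± 0.09 (adjusted p = 0.906, edgeR). Zfp788 to Zfp473, with 10 genes, had a median of -0.026, and Zfp936 a value of 0.050 ± 0.10 (adjusted p = 0.829, edgeR). Zfp553 to Zfp646 had a median of 0.0061. In it Zfp553 had 67.1 and 66.7 CPM in WT, 47.7 in KO replicate 1 and 67.7 in KO replicate 2, so only 1 KO library was low (-0.21 ± 0.15, adjusted p = 0.458, edgeR).

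**Figure D3:**
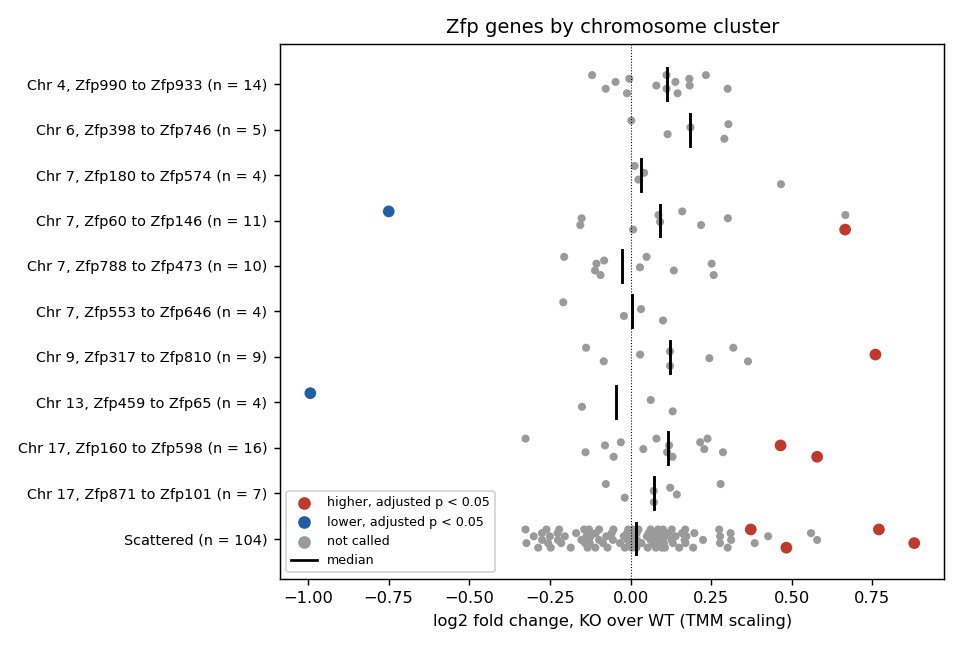
Each point is 1 Zfp gene, placed by its KO over WT log2 fold change with TMM scaling, in rows for the 10 clusters and the 104 scattered genes, with the row's median as a bar. Genes that passed are in colour, and some grey genes that did not pass lie as far out, such as Zfp36 at 0.67 beside Zfp260, and Zfp365 at 0.58 and Zfp697 at 0.56 among the scattered genes.

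**Figure D4:**
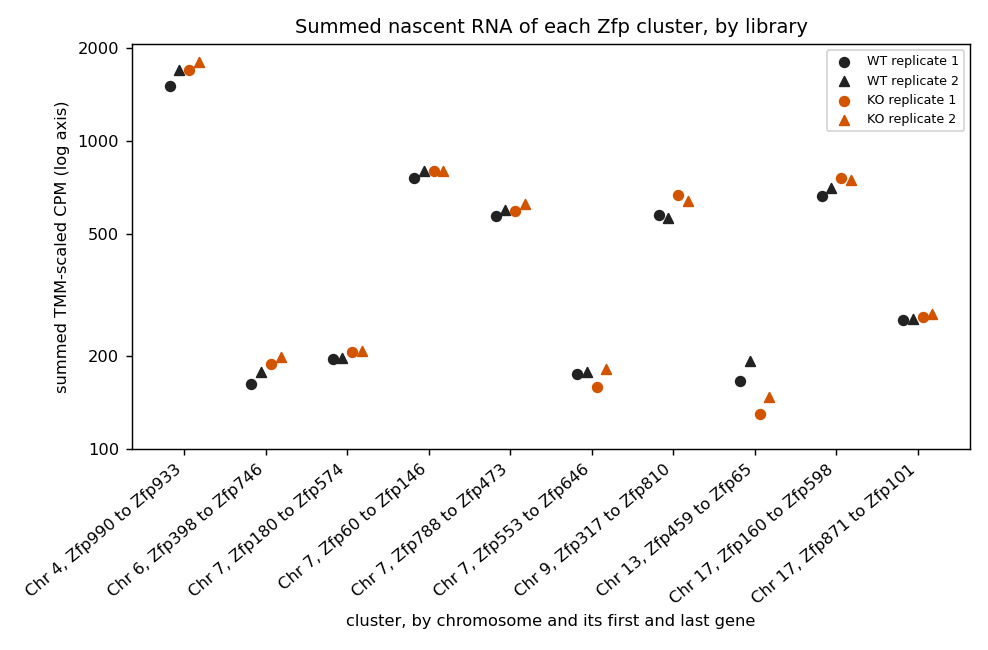
Points give the summed TMM-scaled CPM of each cluster in the 4 libraries, on a log axis. The chromosome 4 cluster lies highest, between 1509 and 1812 CPM, and WT and KO points lie close together in most clusters.

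Per kilobase of exon, Zfp423 had the highest level, at 112 and 129 CPM per kb in WT and 119 and 139 in KO. It encodes a partner of Smad proteins in BMP signalling with 27 fingers. Next came Zfp981, with 89.6 and 94.2 CPM per kb in WT and 117 and 109 in KO, and Zfp532, with 93.3 and 111 in WT and 85.7 and 98.9 in KO. The following 3, Zfp982, Zfp990 and Zfp985, had means of 89.1, 86.1 and 77.6 CPM per kb and belong, like Zfp981, to the chromosome 4 cluster. The ranges over libraries of neighbours in this order overlap throughout, and none of the 6 genes passed the test between genotypes. The order depends on the length used. Nascent RNA includes introns, and per kb of the whole gene the highest was Zfp207 with 14.1, Zfp553 with 12.2 and Zfp91 with 10.7, while Zfp423 ranked 80.

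Genes of known function were grouped by role after their values had been seen, 25 genes in all, and 0 of them passed in edgeR (5 at an unadjusted p under 0.05, 0 in DESeq2, 1 in limma voom and 6 with a term for the depth pairs). The fit with that term passed 25.7% of all tested genes. Beside Zfp568 and Zfp809, the retroelement and imprint group holds Zfp932, a repressor of endogenous retroviruses, and Zfp445, which protects imprinted methylation. They had log2 fold changes of 0.17 ± 0.13 and 0.10 ± 0.09. Among promoter-binding activators, Zfp143, a factor that binds promoters of housekeeping genes, had 50.4 and 52.2 CPM in WT and 49.9 and 44.2 in KO. Zfp410, an activator of the nucleosome remodeller gene Chd4, had 37.3 and 40.1 CPM in WT and 45.0 and 48.8 in KO (0.28 ± 0.10, adjusted p = 0.144, edgeR). Zfp148 and Zfp384 had values of 0.014 and 0.097.

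Of the genes acting on RNA or translation, Zfp36 had the largest value. Zfp598, a ubiquitin ligase at collided ribosomes, had a log2 fold change of 0.080 ± 0.12, and Zfp622, a factor of ribosome assembly, one of 0.062 ± 0.09. Zfp346, Zfp326, Zfp638 and Zfp106, which encode RNA-binding proteins, lay between -0.14 and 0.11. In the Z4 group, which works with the chromatin reader Zmynd8, Zfp532 had -0.14 ± 0.14, Zfp592 0.20 ± 0.10 and Zfp687 -0.22 ± 0.12. Zfp687 had 24.1 CPM in both WT libraries and 20.8 and 20.5 in KO. The SUMO ligase Zfp451 had 0.13 ± 0.10 and the ubiquitin ligase Zfp91 -0.011 ± 0.11.

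A last group of 5 genes acts in chromatin, signalling or mitosis. Zfp423 and the spindle factor Zfp207 had log2 fold changes of 0.093 and 0.0060, and the other 3 were negative. Zfp462, which recruits H3K9 methyltransferases and has 33 fingers, had 739 and 771 CPM in WT and 544 and 661 in KO (-0.33 ± 0.13, adjusted p = 0.172, edgeR). Zfp217, a partner of CoREST, had 91.6 and 89.6 CPM in WT and 71.4 and 80.3 in KO (-0.26 ± 0.09, adjusted p = 0.146, edgeR). Zfp296 had 23.2 and 18.9 CPM in WT and 18.8 and 15.7 in KO. In these 3, though not in the group as a whole, both KO libraries were below both WT libraries. The same held for 26.0% of all tested genes, and none of the 3 passed.

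Protein features followed the differences weakly or not at all. Genes with a KRAB match had a median log2 fold change of 0.085 and 7 of 104 passed, or 6.73%. Those without had a median of 0.016 and 3 of 84 passed, or 3.57%. Both shares were below the 8.07% of all tested genes, and the difference between them was not tested. The number of fingers had a Spearman correlation of 0.024 with the log2 fold change over the 188 genes, which share the same 4 libraries. The total count correlated with the length of the whole gene at 0.48 and with exon length at 0.33, also over 188 genes. Longer genes collect more counts at equal transcription, and whether exons or whole genes were counted is not stated in the labels.

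RefSeq start regions, of 250 bases before to 50 after the start (build GRCm38.p6), were found for 157 of the 188 genes. They held a median of 14 CG dinucleotides, from 2 to 59, with a median of 7 over all 32851 regions of the table and 24 over 5813 other protein-coding genes with the same minimum. Zfp618 had the 59. The TATAAA box was present on either strand in 7.01%, in 13.6% of all regions and in 5.78% of those other genes. The motif made of ACTACA, any 2 bases and TCC, on either strand and known from promoters bound by Zfp143, stood in 18 Zfp regions, or 11.5%, in 1.98% of all and in 4.85% of the other genes. The motif CCGGAAGT, of the ETS type, stood in 12.1%, 3.89% and 10.3%. The last 2 motifs were chosen after the sequences were seen. Zfp260 and Zfp605 were the genes with the ACTACA motif that passed the test. The 180 bases before Zfp605, chr5:110109912-110110091 on the plus strand, are shown because they hold the motif close to the start, on the opposite strand. The capitals mark it.
Zfp605: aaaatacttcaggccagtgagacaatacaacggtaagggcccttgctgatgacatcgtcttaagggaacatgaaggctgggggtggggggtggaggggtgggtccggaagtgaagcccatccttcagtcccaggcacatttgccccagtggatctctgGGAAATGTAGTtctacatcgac
Genes with this motif had a median log2 fold change of 0.089 and those without it 0.062, and this difference was not tested.

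The genes that work with KRAB proteins were listed apart from the Zfp genes: Trim28, its partners, the H3K9 and DNA methyltransferases, the HP1 proteins and the NuRD complex. Of 38 listed, 36 could be tested and 2 passed, or 5.56%, beside 8.07% of all tested genes. Dnmt3a, a DNA methyltransferase that sets new methylation, fell from 106 and 96.0 CPM in WT to 64.0 and 65.6 in KO (-0.64 ± 0.09, adjusted p = 0.00545, edgeR). Suv39h1, an X-linked H3K9 methyltransferase, rose from 37.5 and 31.9 to 49.8 and 49.3 CPM (0.52 ± 0.11, adjusted p = 0.0248, edgeR). Trim28 had 343 and 272 CPM in WT and 304 and 269 in KO, and Setdb1 had 103 and 114 against 87.8 and 92.7 (adjusted p = 0.710 and 0.126, edgeR). The median over the 36 was -0.031. Without WT replicate 2, 1 of the list passed.

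Markers of primitive endoderm moved with the genotype, while 5 of the 7 tested ES cell markers stayed within 1.25-fold. Over all tested genes 8.07% passed in edgeR. The 8 primitive endoderm markers summed to 402 and 492 CPM in WT and 819 and 1175 in KO, and 7 of them passed, all higher. The 8 ES cell markers summed to 1584 and 1546 CPM in WT and 1160 and 1291 in KO, and 1 of the 7 that could be tested passed, Nanog, which was lower. Most of the fall in the sum came from Esrrb, which did not pass, with 543 and 612 CPM in WT and 242 and 427 in KO, while Pou5f1 had a log2 fold change of 0.12. Sox2 was listed at 0 in every library. Feeder fibroblast markers summed to at most 6.45 CPM, and 2-cell-like markers to 16.2 and 11.97 CPM in WT and 35.3 and 20.9 in KO. The part of these shifts in the Zfp values was not tested, and a change in the share of cells of a type cannot be told apart from a change per cell.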

How the data were processed

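The analysis started from raw counts per gene deposited by the authors for 4 TT-seq libraries, 2 WT and 2 Supt3 KO. The authors' deposited comparison table also gave log2 fold changes and p-values, used only where named, and normalized signal values (counts over a size factor). The submitters' processing notes name the mm10 build, STAR 2.5.3, HTSeq 0.6.1p1, cutadapt 1.10, bcl2fastq 2.20.0.422 and DESeq2 1.16.1. Per the labels' protocols the kit was stranded, ribosomal depletion was omitted and S. pombe RNA was the spike-in, while the labels name polyA RNA as the molecule. The annotation release, strand setting and gene part used in counting were not given in the sources used here.

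The low-count filter was filterByExpr in edgeR with a minimum count of 10, which left 16789 and all 188 Zfp genes. edgeR 4.0.16 quasi-likelihood tests (R 4.3.3) used TMM factors, genotype as the only term and Benjamini-Hochberg adjusted p under 0.05. CPM are TMM-scaled, and each SE is the fitted log2 change over the square root of F. With 2 libraries against 2, an exact permutation test of a single gene cannot go below p = 0.333. On simulated counts of 16789 genes for KO against WT, the fit called 13.4%, 59.7% and 89.4% of genes with log2 changes of 0.5, 1 and 2, and 0.0301% of unchanged genes. The changed genes numbered 67, 67 and 66, drawn from all tested genes, whose median total was 945 counts, against 2686 for the Zfp genes. In the data 1355 genes passed, and the rates depend on both settings, so they are not those of the Zfp genes. Alternatives were DESeq2 1.42.0, limma voom 3.58.1, other filters and scalings, a term for the depth pairs, other minimums and gaps, and each library left out.

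Coding sequences, exon unions and 50-base words came from GENCODE M21, which holds all 188 genes, 178 with the coordinates of the deposited table. Start regions came from RefSeq. Coordinates of genes are those of the deposited table. Scripts used Python 3.11.15.

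Named genes were those that passed without overlap of the genotypes, up to 8 per direction; the 6 with most counts per kb of exon; the most counted gene of each cluster; the genes at the minimum; and the repression genes that passed. The Zfp genes and lists were chosen with earlier results of these data known, and the roles, genes near the threshold and motifs after their values were seen. Levels per kb of gene span were added after the data were seen.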

Additional observations from a re-analysis of the deposited data

How the results depend on the processing

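The 8 higher and 2 lower Zfp genes became 14 and 2 with no low-count filter (8.51%, beside 8.34% of all genes), 0 and 0 with spike-in scaling, 32 and 15 with a term for the depth pairs (47 genes, where 25.7% of all tested genes passed), and 5 and 2 with a minimum of 2000 counts, which leaves 127 genes (5.51%). Leaving out 1 library in turn gave 5 to 18 higher and 2 to 10 lower, or 3.72% to 14.9%, beside 4.78% to 16.4% of all tested genes. All 10 calls were kept with no filter, with median-of-ratios library sizes and with the depth pairs, while Zfp605 was lost with limma voom, with a mean of at least 2 CPM and without the left-out chromosomes in the fit, and Zfp51 and Zfp605 with DESeq2. The median of the Zfp genes was 0.029 at a minimum of 2000 counts and 0.026 to 0.066 with 1 library left out. The 2 repression genes became 0 with spike-in scaling (0 at an unadjusted p under 0.05 in edgeR). In DESeq2 and in limma voom, both scaled to mouse genes, 2 passed, and with the depth pairs 9. Without the left-out chromosomes 33 of the list were tested and 1 passed. Chromosome X is among those left out, so the X-linked Suv39h1 was not in that fit. No named gene changed direction where it had passed.

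Cluster medians moved as follows. For Zfp180 to Zfp574 on chromosome 7, whose replicates lay unusually close, the median was 0.046 with no filter, 0.022 at 2 CPM, 0.027 in DESeq2, 0.039 in limma voom, 0.028 with median-of-ratios sizes, 0.058 with the spike-in relative to its all-gene median, 0.036 with the depth pairs, 0.036 without the left-out chromosomes, 0.064 with gaps up to 5 Mb, which merge it with the cluster from Zfp60 into 16 genes, and 0.021 to 0.10 with 1 library left out. For Zfp871 to Zfp101 it was 0.084 with no filter, 0.061 at 2 CPM and 0.025 to 0.12 with 1 library left out. With gaps of at most 1 Mb the medians starting at Zfp60, Zfp788 and Zfp317 were 0.047, -0.082 and 0.18, over 6, 9 and 6 genes, and with 5 Mb that of the cluster holding Zfp459, now 7 genes, was 0.063. With 1 library left out, the ranges were -0.00040 to 0.25 from Zfp990, 0.064 to 0.13 from Zfp60, -0.090 to 0.033 from Zfp788 and 0.085 to 0.20 from Zfp317. The cause was not tested. No paired analysis was possible because the labels give no replicate numbers or pairing, and the depth pairs were defined from the counts. Where 1 library stands for a genotype, its spread is assumed to equal that of the other pair. The minimum of 1000 counts is a sum over 4 libraries, and Zfp184 at that minimum had 218 to 284 counts in each. Counting error is therefore part of the spread between libraries near the minimum. The spread between 2 libraries limits what can be called.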
